A study of Mus musculus with 6 samples.

Results

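The genes described here are the heterogeneous nuclear ribonucleoproteins (hnRNPs) and the serine/arginine-rich (SR) splicing factors, in mouse thymocytes with and without Rpl22l1. They were chosen by symbol as every row of the count table that begins with Hnrnp, the older Hnrp, or Srsf and a digit, with Tra2a and Tra2b added and pseudogene symbols left out. This gave 33 of the 34573 genes in the table: 20 hnRNP genes, 11 SR genes and both Tra2 genes. Of these, 32 passed the count filter. Srsf12 did not, with 6, 4 and 1 reads in the KO libraries and 7, 7 and 3 in the WT libraries. RNA was sequenced from double negative 3 (DN3) cells, the CD4- CD8- CD44- CD25+ stage at which developing T cells of the thymus rearrange their beta chain. The L1 KO group held 3 libraries from mice carrying Cre and floxed Rpl22l1 alleles, and the WT group 3 libraries from mice with the same floxed alleles but no Cre. All mice were 6 to 8 weeks old, on a background of mixed C57BL/6 and 129, and cells were not cultured. The series text names Vav-Cre, which is active throughout blood-forming cells, so that deletion precedes the thymocyte stage; no group carried Cre without deletion, and the effects of Cre and of the lost gene cannot be told apart. The series text and the sample labels attach Cre to opposite genotypes, and the labels were followed.

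hnRNPs coat nascent transcripts, and many of them repress nearby splice sites, while SR proteins bind exonic enhancers through RNA recognition motifs and recruit the spliceosome through their arginine/serine-rich domains. The balance between both families helps to set which exons a cell includes, and in T cells it bears on exons such as those of the phosphatase CD45, which Hnrnpll silences. Many members limit their own level through poison exons, which direct their transcripts to nonsense-mediated decay. Rpl22l1 encodes a ribosomal protein closely related to Rpl22, and work in zebrafish embryos has linked both proteins to pre-mRNA splicing and to hnRNP A1. The counts used here are per gene, so they give the level of each splicing factor and not the splicing of any transcript.

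The promoters of 5 members are shown. Only the first listed window of each gene was searched, and 4 of those shown are the searched member windows that hold the E-box letters CACGTG. Among them are the 3 members with the smallest p-values. The fifth belongs to the member with the highest level per length. These 4 were picked after the values were seen. Each window runs from 250 bases before to 50 bases after a RefSeq start site on GRCm38.p6, 5′ to 3′ on the gene's strand, and capitals mark CACGTG and the CCAAT box (CCAAT or its reverse complement ATTGG). The windows are chr2:75659009-75659308 (plus strand), chr5:99978889-99979188 (minus strand), chr17:33685409-33685708 (minus strand), chrX:134600929-134601228 (plus strand) and chr15:103240147-103240446 (plus strand).
Hnrnpa3: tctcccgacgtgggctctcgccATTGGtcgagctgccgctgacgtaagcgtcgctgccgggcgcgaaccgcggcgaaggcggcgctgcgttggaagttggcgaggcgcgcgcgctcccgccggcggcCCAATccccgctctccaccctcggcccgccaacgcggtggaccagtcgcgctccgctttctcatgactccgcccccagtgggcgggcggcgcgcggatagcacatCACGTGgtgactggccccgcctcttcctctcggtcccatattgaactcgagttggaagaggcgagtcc
Hnrnpd: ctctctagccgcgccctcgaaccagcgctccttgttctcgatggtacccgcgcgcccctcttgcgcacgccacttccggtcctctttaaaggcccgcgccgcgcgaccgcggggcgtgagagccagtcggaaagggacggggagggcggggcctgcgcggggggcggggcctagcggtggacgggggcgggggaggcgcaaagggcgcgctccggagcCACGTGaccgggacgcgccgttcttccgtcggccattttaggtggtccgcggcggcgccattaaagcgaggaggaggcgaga
Hnrnpm: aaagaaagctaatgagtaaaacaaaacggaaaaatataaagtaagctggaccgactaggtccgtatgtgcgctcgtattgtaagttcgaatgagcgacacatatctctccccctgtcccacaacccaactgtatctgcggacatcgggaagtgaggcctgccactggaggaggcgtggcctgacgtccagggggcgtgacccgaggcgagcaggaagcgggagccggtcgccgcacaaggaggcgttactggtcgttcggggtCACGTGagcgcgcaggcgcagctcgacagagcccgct
Hnrnph2: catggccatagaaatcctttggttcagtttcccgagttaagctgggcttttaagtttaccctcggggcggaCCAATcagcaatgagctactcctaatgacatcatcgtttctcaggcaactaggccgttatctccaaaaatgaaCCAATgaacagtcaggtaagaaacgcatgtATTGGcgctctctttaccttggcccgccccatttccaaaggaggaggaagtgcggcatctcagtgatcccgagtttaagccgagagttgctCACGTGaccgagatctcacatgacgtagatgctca
Hnrnpa1: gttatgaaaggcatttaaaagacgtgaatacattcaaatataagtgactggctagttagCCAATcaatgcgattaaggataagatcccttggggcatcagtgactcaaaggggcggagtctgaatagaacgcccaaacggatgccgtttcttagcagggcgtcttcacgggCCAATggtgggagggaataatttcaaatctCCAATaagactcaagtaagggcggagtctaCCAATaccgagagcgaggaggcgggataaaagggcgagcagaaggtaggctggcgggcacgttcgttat

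The first base of CACGTG lay 18 bases before the start site in Hnrnpa3, 32 before it in Hnrnpd, 13 after it in Hnrnpm and 15 after it in Hnrnph2. These letters, a palindrome, were present in 4 of the 31 member windows searched (12.9%), against 10.3% of 8966 windows of tested genes. Further windows listed for the same gene were not searched. Hnrnph1 has 5 listed windows, Hnrnpf 4, Srsf4 3, and Hnrnpa2b1, Hnrnpr and Srsf11 2 each. The CCAAT box was present in 17 of the 31 (54.8%), against 39.3%, with 12 of 18 hnRNP windows and 5 of 13 SR and Tra2 windows. Hnrnpa1 held 4 copies, as did Hnrnpc, Hnrnpl, Hnrnpr and Hnrnpul1. GGGCGG or CCGCCC was present in 25 of the 31 (80.6%, against 63.9%), and TATAAA or TTTATA in 4 (12.9%, against 6.48%). The motifs were searched on both strands, and none of them contains another. The median GC content of the member windows was 65.0%, against 60.7%. These are matches of letters, with no measurement of binding.

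Rpl22l1 was low in each library labelled KO, with 18.6, 19.98 and 26.1 CPM (reads per 1e6 counted reads, with TMM scaling) in KO 1 to 3, against 86.2, 123 and 118 CPM in WT 1 to 3, a log2 fold change of −2.35 ± 0.18 (SE; edgeR adjusted p = 0.00103). Libraries held 13887672 to 28128186 reads counted to genes in KO and 19570475 to 21571810 in WT. The 6 DN3 markers (Il2ra, Ptcra, Cd3e, Cd3g, Rag1, Notch1) summed to 5980 to 6470 CPM in KO and 5930 to 6420 CPM in WT. Within that sum, Il2ra had 1992, 1828 and 1955 CPM in KO 1 to 3, against 1749, 1396 and 1531 CPM in WT 1 to 3, with no overlap, and Rag1 had 612.5, 781 and 882 CPM in KO, against 823, 1103 and 994 CPM in WT, with overlap. Neither passed the threshold on group alone (edgeR adjusted p 0.1005 and 0.198), while with the replicate number as a block Il2ra rose (0.00242) and Rag1 fell (0.00264). The 4 double positive markers summed to 14.1 to 19.7 CPM in KO and 10.3 to 17.7 CPM in WT. Early progenitor markers were lower in KO, at 29.8 to 39.3 CPM against 49.7 to 63.8 CPM in WT, with 2 of 3 tested genes passing the threshold, as were dendritic markers, at 4.20 to 5.92 CPM against 8.45 to 10.6 CPM, with 2 of 4 tested genes passing. Epithelial and stromal markers stood at 31.0 to 35.6 CPM in KO and 47.5 to 63.8 CPM in WT, with 1 of 2 tested genes passing, and B lineage markers at 23.6 to 26.9 CPM in KO and 30.4 to 32.9 CPM in WT, with the 1 tested gene passing and Ms4a1 and Pax5 at 0 reads. Myeloid markers spanned 24.7 to 31.4 CPM in KO and 24.1 to 29.3 CPM in WT with Ly6g at 0, natural killer and innate lymphoid markers 30.3 to 41.2 CPM in KO and 35.2 to 39.4 CPM in WT with Ncr1 at 0, and the 3 erythroid and platelet markers 0.146 to 2.14 CPM in KO and 1.93 to 4.24 CPM in WT; of these 3 lists 0 members passed. The part of these cells in the results below was not tested. In bulk RNA, fewer cells of a type and less RNA per cell cannot be told apart. KO 1 and WT 1 differed from the other libraries of their groups, so the counts of calls, the summed level and some single values are also given without them.

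Most hnRNP and SR genes had a slightly higher level in L1 KO thymocytes, but none passed the threshold in the comparison on group alone. In edgeR's quasi-likelihood F test, at a Benjamini-Hochberg adjusted p under 0.05, 0 of the 32 tested members changed, against 4.57% of all 13729 tested genes. At an unadjusted p under 0.05 the members numbered 7 (21.9%), against 23.4% of all genes, so that share was close to the background. The log2 fold change was positive for 29 of the 32 members, against 48.8% of all tested genes, with a median of 0.12, against −0.0066 for all tested genes. The KO libraries lay above all WT libraries in 12 members (37.5%, against 13.8% of all genes) and below them in 1, Hnrnph2 (against 14.7%). Members had mean levels of 64.6 to 1799 CPM. Here and below, the shares of all genes were not matched for level, and the part of level in the difference was not tested. With the replicate number as a block, 9 members rose (28.1%, against 9.96%) and 1 fell (against 10.3%). Of the 20 hnRNP genes 7 rose (35%). Of the 10 SR genes tested 1 rose (10%), a share at the background. DESeq2 called 4 members, Hnrnpa3, Hnrnpd, Hnrnpu and Hnrnph2 (against 8.91%), and limma-voom 0 (against 3.89%). Without KO 1, 7 members rose (against 7.99%), and without any other single library 0 changed. Without both number 1 libraries 10 rose (against 10.6%) and 1 fell (against 10.5%). The 10 members called with the block were Hnrnpa3, Hnrnpd, Hnrnpu, Tra2b, Hnrnpab, Hnrnph2, Hnrnpm, Srsf10, Hnrnpr and Hnrnpk, which are also the 10 with the smallest p on group alone.

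**Figure D1:**
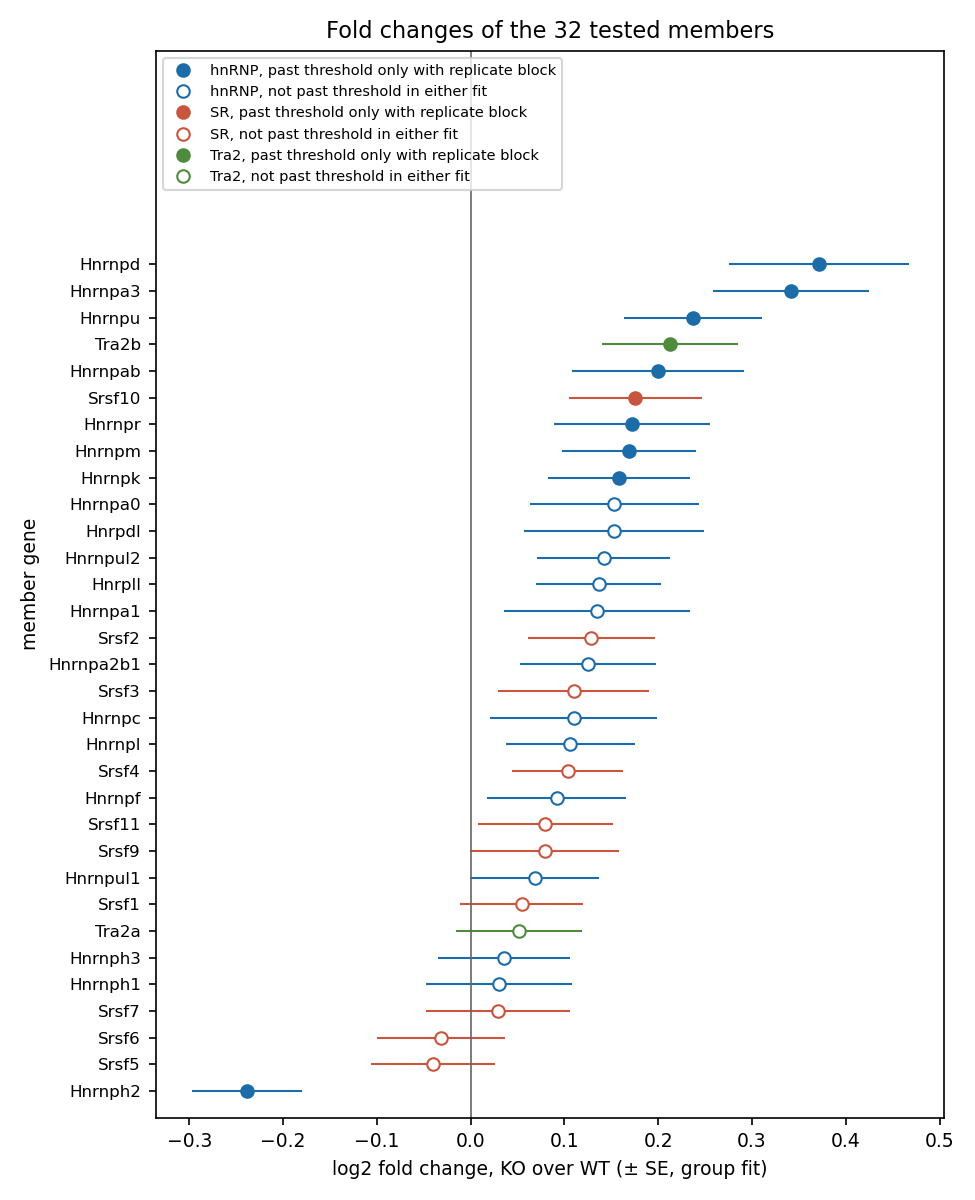
Log2 fold change of KO over WT (x axis, ± SE of the edgeR comparison on group) for each of the 32 tested members (y axis), with filled points for the 10 members past the threshold with the replicate block and open points for the rest. Fold changes run from −0.24 for Hnrnph2 to 0.37 for Hnrnpd, and 29 of 32 points lie right of 0.

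Within each group, members were mostly lowest in the number 1 library. KO 1 had the lowest level of the 3 KO libraries in 24 of the 32 members, and WT 1 the lowest of the 3 WT libraries in 24. This count was not made over all tested genes. Across all tested genes the deviations of KO 1 and WT 1 from their group means correlated at 0.59. Whether the pattern is particular to the members was not tested. The median member lay 0.07 below its KO mean in KO 1 and 0.06 below its WT mean in WT 1 on the log2 scale. Summed over all 33 members, the level was 18546, 20064 and 20005 CPM in KO 1 to 3, against 17120, 17963 and 18321 CPM in WT 1 to 3, so that the groups did not overlap. The KO mean was 1.10 times the WT mean, with and without the number 1 libraries. hnRNP genes summed to 14058 ± 749 CPM in KO and 12559 ± 447 CPM in WT (SD, n = 3 each). SR genes summed to 4917 ± 93.3 CPM in KO and 4737 ± 139 CPM in WT. Their groups overlapped, with KO 1 at 4809 CPM and WT 3 at 4841 CPM. Tra2 genes summed to 564 ± 19.8 CPM in KO and 505 ± 31.3 CPM in WT. The hnRNP genes together drew 2.74, 2.92 and 2.91 reads for each SR read in KO 1 to 3, against 2.64, 2.64 and 2.67 in WT 1 to 3. This quotient does not depend on the scaling of the libraries, and every KO value lay above every WT value.

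Among the A/B group, proteins with paired RNA recognition motifs that bind UAG-containing sites, Hnrnpa3 had the highest log2 fold change. Hnrnpa3 (ENSMUSG00000059005, chromosome 2 from 75659261 to 75669407, plus strand) had 1459, 1622 and 1532 CPM in KO 1 to 3, against 1119, 1251 and 1269.8 CPM in WT 1 to 3. Every KO library was above every WT library, and the log2 fold change was 0.34 ± 0.08, a level higher by 26.7%, with an adjusted p of 0.0517 on group alone in edgeR. With the block the adjusted p was 0.000896, with DESeq2 0.000781 and without a count filter 0.0195. Without single libraries it ranged from 0.0178 without KO 1 to 0.217 without KO 2.

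Hnrnpa1, the best known repressor of this group, had 1216 and 1483 CPM in KO 1 and 2 and 1418 CPM in KO 3, against 1137, 1337 and 1277 CPM in WT 1 to 3. The groups overlapped, since KO 1 lay below WT 2 and WT 3, and the log2 fold change of 0.13 ± 0.10 had an adjusted p of 0.445, or 0.0739 with the block. Hnrnpa2b1, a nuclear protein known to bind N6-methyladenosine-containing transcripts, had 1840.02, 1856 and 1935 CPM in KO, against 1667, 1757 and 1738 CPM in WT. Its groups did not overlap, and the log2 fold change was 0.13 ± 0.07 (adjusted p 0.331). Hnrnpa0, a relative known to bind AU-rich elements, had a log2 fold change of 0.15 ± 0.09 (adjusted p 0.34), with no overlap of groups and WT 2 at 357 CPM below the other 5 libraries, which had 440.2 to 466 CPM. Without WT 2 its log2 fold change was 0.06.

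The D group binds AU-rich elements of mRNA as well as splice sites. Hnrnpd (also called AUF1, known for its part in mRNA decay; ENSMUSG00000000568, chromosome 5 from 99955935 to 99978938, minus strand) had 352, 441 and 434 CPM in KO 1 to 3, against 306, 305 and 337 CPM in WT 1 to 3. The KO libraries lay above the WT libraries, KO 1 by the smallest margin. The log2 fold change of 0.37 ± 0.10 was the highest among the members, with an adjusted p of 0.0591 on group alone, 0.00265 with the block, 0.00561 with DESeq2 and 0.0141 without a count filter. Without KO 1 the log2 fold change was 0.48 and the adjusted p 0.00382. Hnrnpab, a close relative, had 886, 1041 and 1052 CPM in KO, against 812, 853 and 928 CPM in WT; KO 1 fell inside the WT range. Its log2 fold change was 0.20 ± 0.09, with an adjusted p of 0.227, and it rose with the block (0.0206) and without KO 1 (0.0438). Hnrpdl, the older symbol of Hnrnpdl, lies 54.6 kb from Hnrnpd on the same strand. It had a log2 fold change of 0.15 ± 0.10 with an adjusted p of 0.37, or 0.0855 with the block, and rose without KO 1 (0.0433) and without both number 1 libraries (0.014).

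The F/H group binds runs of G, and here Hnrnph2 was the one member with a lower level in KO and no overlap of groups. Hnrnph2 (ENSMUSG00000045427, chromosome X from 134601179 to 134607060, plus strand) had 109.8, 116 and 109 CPM in KO 1 to 3, against 128, 138 and 129 CPM in WT 1 to 3. Its log2 fold change was −0.24 ± 0.06, a difference of −15.3%, with an adjusted p of 0.0531 on group alone. It fell with the block (0.00854), with DESeq2 (0.0311), when libraries were scaled by size alone (0.0327) and with a filter of 5 CPM (0.0462). It did not pass with RLE factors (0.0582), without a count filter (0.0758), with limma-voom (0.0714) or with robust fitting off (0.0569). Without single libraries its adjusted p ranged from 0.0506 without KO 1 to 0.226 without KO 3. Hnrnph1, its close paralog, had 905 to 1025 CPM in KO and 911 to 986 CPM in WT, with a log2 fold change of 0.03 ± 0.08 whose sign changed under 3 alternatives. Hnrnph3 and Hnrnpf, with log2 fold changes of 0.04 ± 0.07 and 0.09 ± 0.07, had overlapping groups too.

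Hnrnpu, also called scaffold attachment factor A, which binds chromatin and long RNAs, had 1240.4, 1332 and 1351 CPM in KO 1 to 3, against 1104, 1074 and 1152 CPM in WT 1 to 3. The groups did not overlap, and the log2 fold change of 0.24 ± 0.07 had an adjusted p of 0.0979 on group alone. It rose with the block (0.00754), with DESeq2 (0.0101) and without KO 1 (0.0346). Its relatives Hnrnpul2 and Hnrnpul1, which act in the response to DNA damage, had log2 fold changes of 0.14 ± 0.07 and 0.07 ± 0.07, with overlapping groups.

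**Figure D2:**
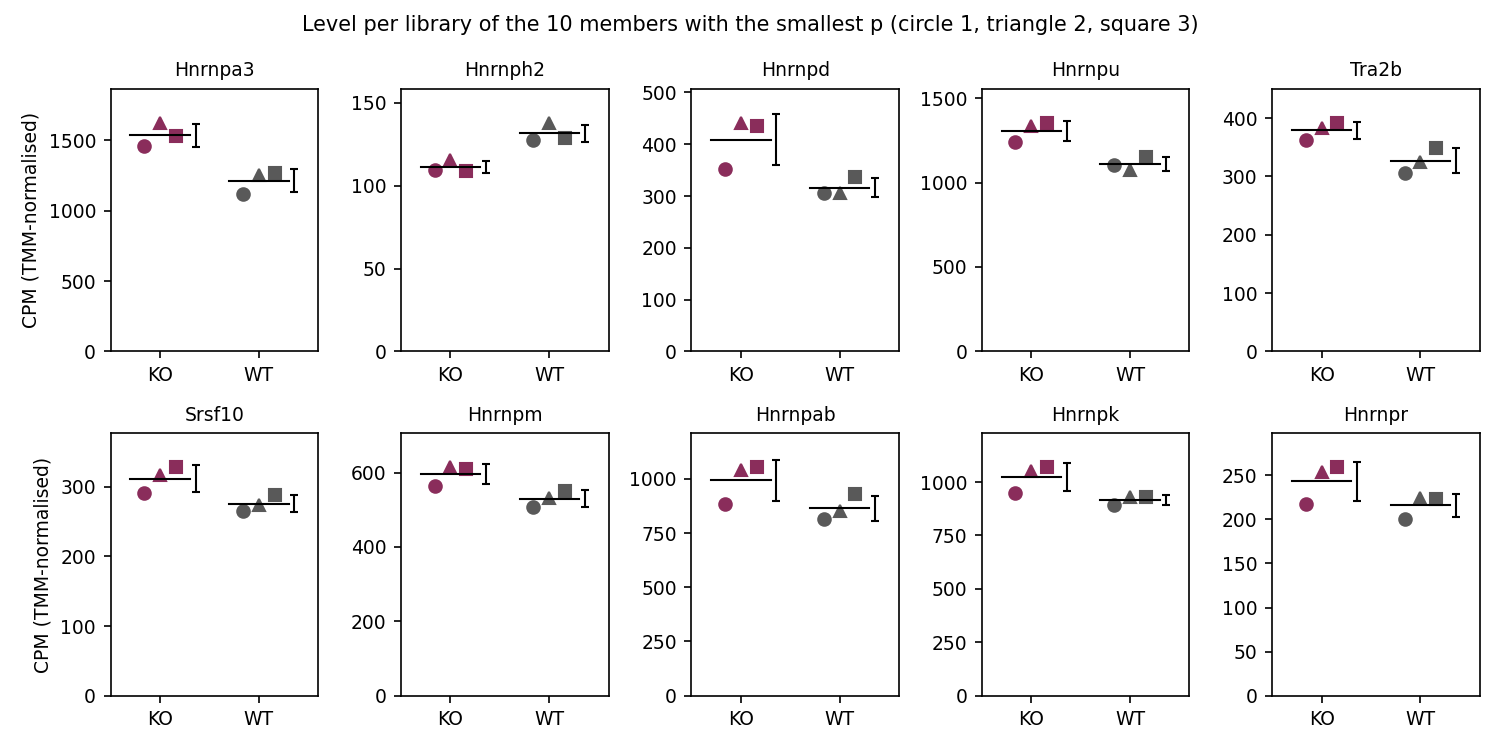
CPM per library (y axis from 0, TMM-normalised) for the 10 members with the smallest p, with KO libraries left of WT libraries in each panel, lines at the means and bars of 1 SD (n = 3). Circles, triangles and squares are libraries 1, 2 and 3. The circle is the lowest KO value in every panel but that of Hnrnph2, where the 3 KO values of 109 to 116 CPM lie below all WT values.

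Hnrnpm, Hnrnpk, Hnrnpr and Hnrpll had adjusted p-values of 0.193 to 0.253 on group alone. Hnrnpm, which binds GU-rich sites, had 564, 614 and 611 CPM in KO, against 508, 532 and 551 CPM in WT, with no overlap. Hnrnpk, which binds C-rich sites through KH domains, had 948, 1051 and 1068 CPM in KO, against 891, 929 and 928 CPM in WT, with no overlap. Hnrnpr, a relative of Syncrip, had 218, 253 and 259 CPM in KO, against 201, 225 and 223 CPM in WT, and KO 1 lay inside the WT range. Their log2 fold changes were 0.17 ± 0.07, 0.16 ± 0.08 and 0.17 ± 0.08, and all of them rose with the block, with adjusted p-values of 0.0349, 0.0464 and 0.0439. Hnrpll, the older symbol of Hnrnpll, the silencer of CD45 exons in T cells, had 113, 124 and 126 CPM in KO, against 107, 106 and 116 CPM in WT. Its log2 fold change of 0.14 ± 0.07 did not pass with the block either (0.105), and KO 1 lay below WT 3. Hnrnpl, which binds CA repeats, and Hnrnpc, which packages nascent transcripts along U tracts, had log2 fold changes of 0.11 ± 0.07 and 0.11 ± 0.09; the groups overlapped in Hnrnpc and not in Hnrnpl, where KO had 542 to 558 CPM and WT 485 to 537 CPM.

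Of the 10 SR genes tested, 8 had a positive log2 fold change, the median was 0.08, against 0.14 for the 20 hnRNP genes, and the range was −0.04 to 0.18. The difference between both families was not tested. With the block, 1 of the 10 SR genes rose (10%, against 9.96% of all genes), a share at the background. Srsf10, known as a splicing repressor when it is dephosphorylated, had 291, 316 and 328 CPM in KO 1 to 3, against 265, 274 and 289 CPM in WT 1 to 3. KO 1 lay just above WT 3, and the log2 fold change of 0.18 ± 0.07 had an adjusted p of 0.178, or 0.0358 with the block and 0.0473 without KO 1. Srsf2 (SC35), a classical enhancer-binding factor, had 606, 616 and 644 CPM in KO, against 557, 559 and 591 CPM in WT. Its groups did not overlap, but the log2 fold change of 0.13 ± 0.07 passed in neither fit, with an adjusted p of 0.282, or 0.0897 with the block.

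Srsf1, the founding member of the family, had 842, 823 and 811 CPM in KO, against 801, 787 and 797 CPM in WT. The groups did not overlap, yet the log2 fold change was only 0.05 ± 0.07 with an adjusted p of 0.655. Srsf3, the smallest of the SR proteins and a factor in mRNA export as well, had 649, 746 and 722 CPM in KO, against 616, 679 and 666 CPM in WT, with KO 1 inside the WT range and a log2 fold change of 0.11 ± 0.08 (adjusted p 0.439). Srsf5 and Srsf6 had small negative log2 fold changes of −0.04 ± 0.07 and −0.03 ± 0.07, and Srsf4, Srsf7, Srsf9 and Srsf11 had 0.10 ± 0.06, 0.03 ± 0.08, 0.08 ± 0.08 and 0.08 ± 0.07. All 6 had overlapping groups.

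The Tra2 genes encode SR-like activators that bind GAA-rich exonic enhancers. Tra2b had 363, 382 and 391 CPM in KO 1 to 3, against 307, 325 and 349.5 CPM in WT 1 to 3, with no overlap and a log2 fold change of 0.21 ± 0.07. Its adjusted p was 0.119 on group alone and 0.0144 with the block. Its paralog Tra2a had 180.1, 183 and 191 CPM in KO, against 165, 187 and 184 CPM in WT, with overlapping groups and a log2 fold change of 0.05 ± 0.07 (adjusted p 0.679).

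Counts of 4 pairs of related members were set against each other within each library, a quotient that no scaling can move. The pairs were chosen after their values were seen, so the values are a description. An exact two-sided permutation test of 3 against 3 libraries cannot give a p below 0.1, and it gave 0.1 for each pair. For each Hnrnph1 read there were 0.121, 0.113 and 0.110 Hnrnph2 reads in KO 1 to 3, against 0.140, 0.143 and 0.131 in WT 1 to 3. Hnrnpa3 over Hnrnpa1 gave 1.20, 1.09 and 1.08 in KO, against 0.984, 0.936 and 0.995 in WT. Hnrnpd over Hnrpdl gave 0.928, 0.938 and 0.919 in KO, against 0.827, 0.737 and 0.833 in WT. Tra2b over Tra2a gave 2.02, 2.08 and 2.05 in KO, against 1.86, 1.74 and 1.90 in WT. In all 4 pairs the groups did not overlap, the number 1 libraries included. As the pairs were chosen with these values known, that count supports nothing further, and it was not made over other pairs of genes. Such a quotient shows unequal change of both genes, not that one of them stayed the same.

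**Figure D3:**
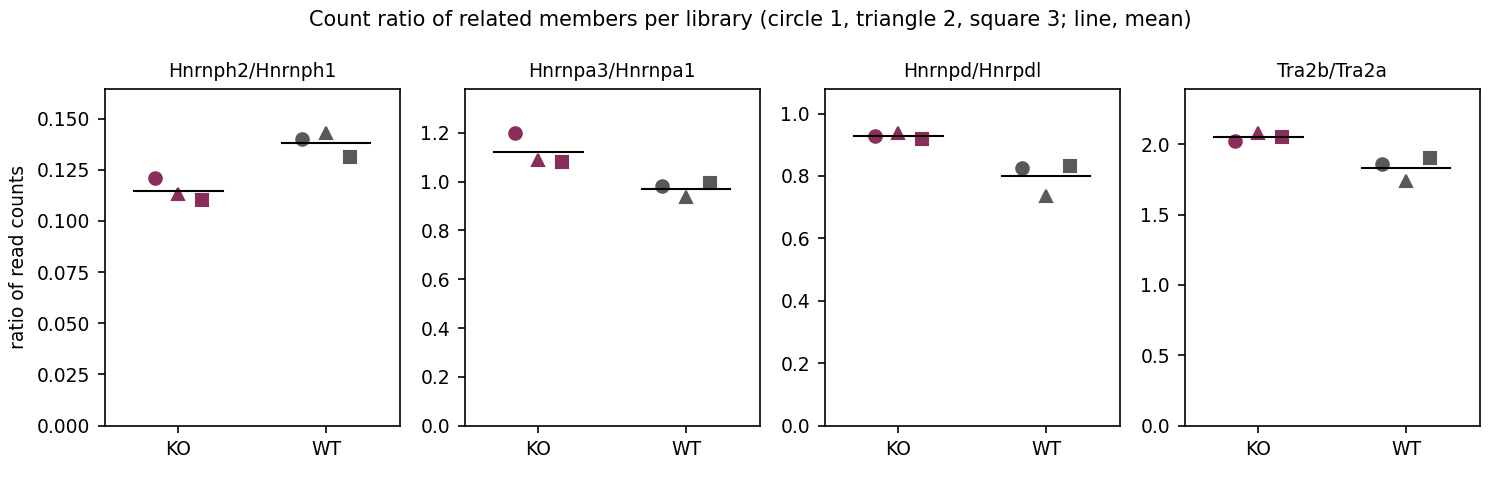
Quotient of read counts of 2 related members (y axis from 0) in each library, KO left and WT right in each panel, with lines at the means. KO means are 0.115, 1.12, 0.928 and 2.05 from left to right, against WT means of 0.138, 0.972, 0.799 and 1.83.

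Levels of different genes were compared per length, as reads per kilobase of merged exons per 1e6 counted reads (RPKM). Hnrnpa1 was highest, at 435 ± 44.3 RPKM in KO and 396.5 ± 32.4 RPKM in WT (SD, n = 3 each). Hnrnpab followed with 357 ± 33.4 RPKM in KO and 311 ± 21.1 RPKM in WT. Hnrnpa2b1 had 285 ± 7.76 RPKM in KO and 261 ± 7.23 RPKM in WT, and Hnrnpa3 had 285 ± 15.2 RPKM in KO and 225 ± 15.2 RPKM in WT. In KO the means of Hnrnpa2b1 and Hnrnpa3 were thus alike, while in WT Hnrnpa3 lay under Hnrnpa2b1 by more than their SDs. The highest SR gene was Srsf2, with 210.3 ± 6.58 RPKM in KO and 192 ± 6.39 RPKM in WT. Hnrpll and Hnrnpr were lowest, at 10.3 ± 0.60 and 10.96 ± 1.0 RPKM in KO, against 9.41 ± 0.47 and 9.73 ± 0.60 RPKM in WT. The merged exons of Hnrpll and Hnrnpr span 11677 and 22199 bases over all their annotated transcripts, against a median of 5710 for the members. This length lowers their values on this scale.

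**Figure D4:**
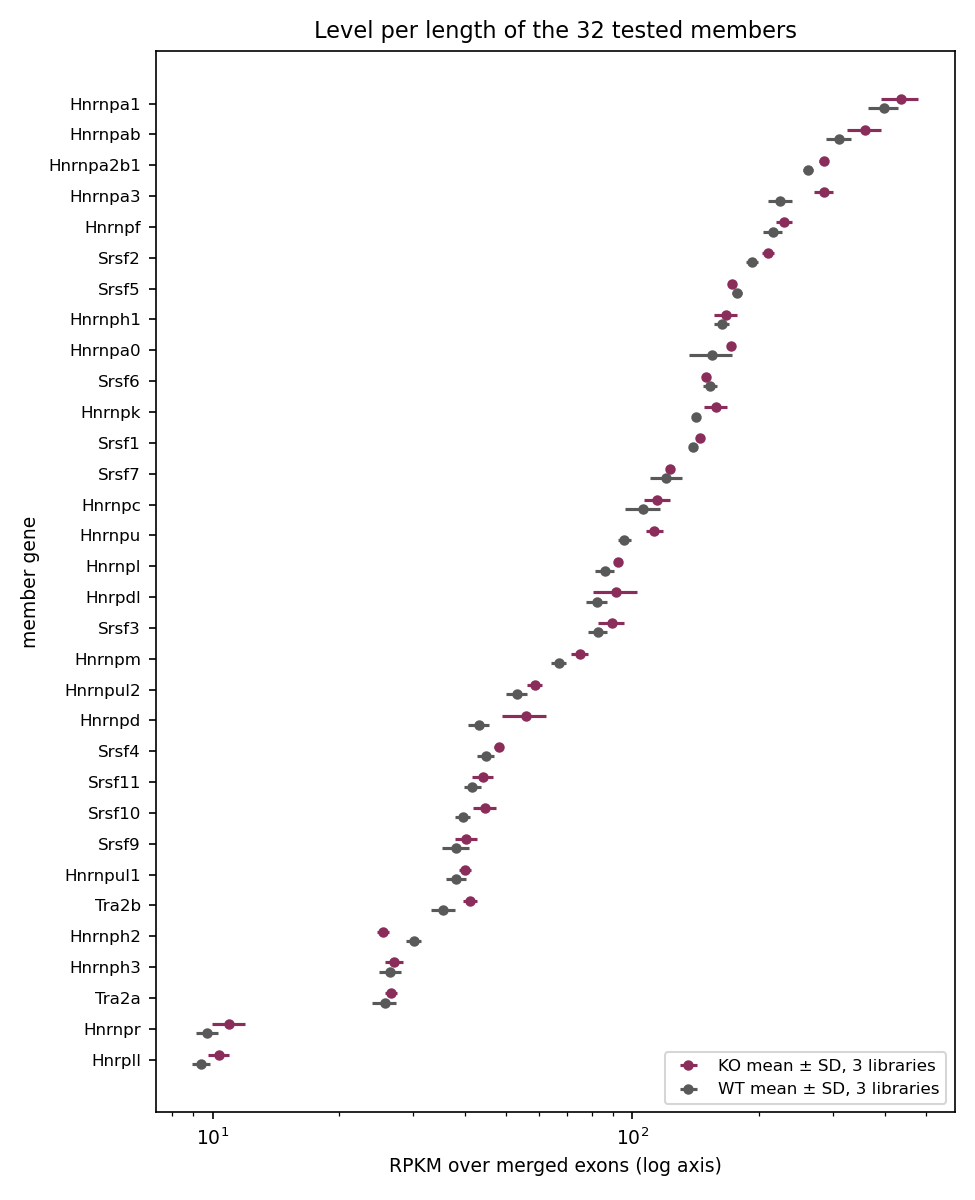
RPKM over merged exons (x axis, log scale) for the 32 tested members (y axis), as mean ± SD of 3 KO libraries above 3 WT libraries. The members span from about 10 RPKM for Hnrpll to 435 RPKM for Hnrnpa1 in KO, and KO points lie left of WT points for Hnrnph2, Srsf5 and Srsf6.

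Of other splicing genes, in 7 lists with 123 tested genes, 0 rose and 1, Tia1, fell on group alone. Tia1, which binds U-rich sequence beside weak 5′ splice sites, had 289, 271 and 255 CPM in KO 1 to 3, against 347, 339 and 327 CPM in WT 1 to 3. The groups did not overlap, and the log2 fold change was −0.31 ± 0.07 with an adjusted p of 0.0384. It did not pass without KO 2, KO 3, WT 1, WT 2 or WT 3. The 18 snRNP proteins, the protein core of the spliceosome's small nuclear ribonucleoproteins, had 17 positive log2 fold changes with a median of 0.19, and 9 of them rose with the block, against 9.96% of all genes. Snrpf, a ring protein of the Sm core, had 111 ± 3.0 CPM in KO and 95.98 ± 3.4 CPM in WT, and Snrpc, of the U1 particle, 70.6 ± 3.5 CPM in KO and 59.4 ± 4.1 CPM in WT; both rose with the block. Of 23 PRP and helicase factors, 20 were positive with a median of 0.10, and 5 rose with the block, among them Prpf31 (log2 fold change 0.19 ± 0.06) and Eftud2 (0.20 ± 0.06). Of 16 factors of the 3′ splice site and U2, with a median of 0.09, Sf3a3 (0.24 ± 0.07) and Sf3a1 (0.21 ± 0.06) rose with the block, a share of 12.5% that is near the 9.96% of all genes.

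Relatives and modifiers of the members had fold changes of both signs, and their calls with the block are to be read against 9.96% of all genes higher and 10.3% lower. Of 13 hnRNP proteins that carry other names, 8 were positive with a median of 0.08. With the block Ptbp1, the polypyrimidine tract repressor also called hnRNP I, rose (0.23 ± 0.08), as did its paralog Rod1, now Ptbp3 (0.22 ± 0.08), while its paralog Ptbp2 fell (−0.20 ± 0.07). Of 18 SR protein kinases and SR-related proteins, 9 were positive and 9 negative, with a median of 0.02, and 1 rose with the block, Rnps1 (0.21 ± 0.07), a part of the exon junction complex. That is 5.56% of the list, below the share of all genes. Clk4 and Clk1, kinases that phosphorylate SR proteins, had −0.19 ± 0.08 and −0.18 ± 0.09 and passed in neither fit. Of 20 tissue and cell type regulators, with 12 positive and a median of 0.06, Rbm17 and Sfpq rose with the block and Tia1 and Rbm5 fell, a share of 10% in each direction that is at the background. Of 15 genes of the exon junction complex and nonsense-mediated decay, with 10 positive and a median of 0.03, 2 rose with the block, Magoh (0.27 ± 0.09) and Rbm8a (0.18 ± 0.09), and 2 fell, Smg6 (−0.21 ± 0.06) and Smg1 (−0.26 ± 0.11), a share of 13.3% in each direction that is near the background. At an unadjusted p under 0.05 the 7 lists held 29 genes (23.6%), against 23.4% of all tested genes.

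**Figure D5:**
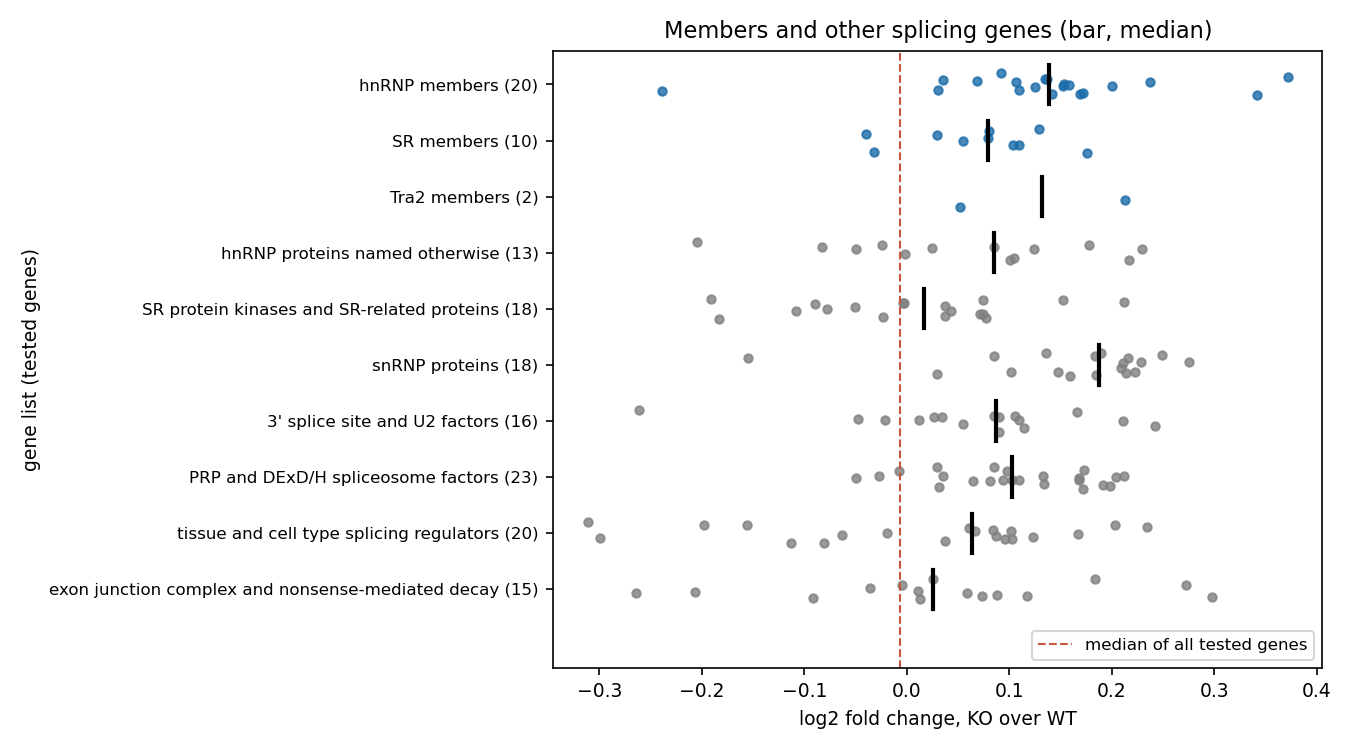
Log2 fold change of KO over WT (x axis) for each tested gene of the 3 member classes (blue) and of 7 lists of other splicing genes (grey), with black bars at the medians and a dashed line at the median of all tested genes, −0.0066. Medians run from 0.02 for SR protein kinases and SR-related proteins to 0.19 for snRNP proteins.

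The annotation limits what a count of these genes holds. Transcripts marked as targets of nonsense-mediated decay were annotated for 11 of the 13 SR and Tra2 genes (84.6%) and 10 of the 20 hnRNP genes, against 29.6% of 10857 tested protein-coding genes, and the counts pool them with the coding transcripts. Exons of 14 members overlap exons of another gene. On the same strand, the largest share of exon bases was in Hnrnpm (14.7%, with March2). On either strand, the share of the member's exon bases was highest in Srsf4 (43.0%, with an antisense-strand transcript, Gm12992) and Hnrnpab (29.1%, with Phykpl on the other strand). As the strand setting of the counting is not given, reads there could not be told apart. Annotated pseudogenes of any class with at least 95% identity over 200 bases were most numerous for Hnrnpa3, with 35, and Hnrnpa1, with 9, so the counts of both are uncertain. Of these, 25 and 5 had a row in the count table. Rows of such pseudogenes are separate from those of the parent gene. Their reads came to 0.824% of the parent's own count for Hnrnpa3 and 0.319% for Hnrnpa1. For Hnrnpc the share was 5.56%, the highest among the members, so its count is uncertain too. Reads that aligned to several places were not counted to any gene.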

How the data were processed

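RNA sequencing of DN3 thymocytes gave 3 KO and 3 WT libraries. The authors deposited raw read counts per gene symbol, in a table with 2 header lines and 5 summary rows; per the submitters' processing notes TopHat2, HTSeq and GRCm38 were used, with annotation, strand setting and versions not given in the sources used here. Summary rows were left out; reads without a feature made up 50.4% to 51.9% of the total and multiply aligned reads 9.14% to 10.2%. Ctrl columns were taken as the WT samples of the same number.

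The comparison used edgeR 4.0.16 under R 4.3.3, with filterByExpr (minimum count 10, total 15), TMM, estimateDisp, robust glmQLFit and glmQLFTest (two-sided) for KO over WT, on all 13729 genes that passed, with Benjamini-Hochberg adjustment at 0.05. SEs are those implied by the F statistic. CPM and RPKM were computed from the deposited counts, RPKM over merged exons of GENCODE M21 (GRCm38), in which all 33 members were found. Alternatives were RLE factors, library size alone, no filter, a filter of 5 CPM, DESeq2 1.42.0, limma-voom (limma 3.58.1), robust fitting off, the replicate block and left-out libraries. The procedure was also run on simulated counts drawn independently for each library. These held no shift shared by same-numbered libraries, so they do not bear on the effect of the block here.

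The labels number the libraries of both groups 1 to 3. Deviations from group means correlated at 0.59, 0.19 and 0.37 across genes between same-numbered libraries, above the threshold of 0.1 for treating numbers as pairs. However, KO 3 and WT 2 (0.32) and KO 2 and WT 3 (0.25) both exceeded KO 2 and WT 2. The correlations thus set the number 1 libraries apart, but do not tell number 2 from number 3. The labels name no litter, batch or day. The comparison on group is the main one and blocked values stand beside it. Whether each library is a separate mouse is not stated, so the p-values refer to spread between libraries that may be technical.

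Members and lists were chosen with earlier results of these data known. All members are described, with values per library for the 10 smallest p-values, the 4 highest levels per length and Hnrnpa1, Hnrpll, Srsf1, Srsf2, Srsf3, Tra2a and Tra2b; of other lists up to 4 with the smallest p, and Clk1, Rbm8a and others named for a count. Promoters are from RefSeq (GRCm38.p6), found for 31 of 33 members, and only the first listed window of each gene was used. Pseudogenes were matched with blastn 2.17.0 at 95% identity over 200 bases. Protein sequences were not used here, so the planned protein features were not computed.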

Additional observations from a re-analysis of the deposited data

How the results depend on the processing

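Under 15 alternatives, the 32 members gave 480 comparisons with the main value, of which 435 kept both direction and side of the threshold, 36 kept direction and passed the threshold only under the alternative, and 9 changed sign, all within 0.05 of 0. The sign changes were −0.000502 for Tra2a, −0.0119 for Hnrnph3, −0.000414 for Hnrnph1 and −0.018 for Srsf7 without WT 1, −0.0477 for Hnrnph3 and −0.0193 for Srsf7 without both number 1 libraries, −0.0012 for Hnrnph1 and −0.00141 for Srsf7 with library size alone, and −0.00247 for Hnrnph1 without KO 2. With libraries left out the values reached 0.0857 for Tra2a, 0.0748 for Hnrnph3, 0.0864 for Hnrnph1 and 0.103 for Srsf7. The count of members called, 0 in the main comparison, was 1 with library size alone, 2 without a filter, 1 with a filter of 5 CPM, 4 with DESeq2, 10 with the replicate block, 11 without both number 1 libraries, and 0 to 7 without single libraries. Over all tested genes 628 were called (4.57%), and the member counts are to be read against such shares. There were 668 with library size alone (4.87%), 1037 without a filter (4.93%) and 532 with a filter of 5 CPM (5.04%). DESeq2 called 1222 (8.91%) and the replicate block 2785 (20.3%). Without both number 1 libraries 2881 were called (21%), and without single libraries 109 to 2177 (0.779% to 15.6%). In the other splicing lists 1 gene was called, 8 with DESeq2, 28 with the replicate block, 33 without both number 1 libraries and 0 to 18 without single libraries. The cause was not tested. The members' median log2 fold change, their summed level and the fall of Rpl22l1 kept their direction under every alternative run. KO 3 was the shallowest library, and its counts carry the most sampling error.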

Other observations

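Some members lie near each other in the genome. Hnrnpd and Hnrpdl are 54.6 kb apart on the minus strand of chromosome 5, with 1 protein-coding gene between them, and had log2 fold changes of 0.37 and 0.15. Hnrpll and Srsf7 are 138 kb apart on chromosome 17, also with 1 protein-coding gene between them, and had 0.14 and 0.03. Hnrnpa0 and Hnrnpk, 263 kb apart on chromosome 13, had 0.15 and 0.16. The pseudogene row Hnrnpa1l2-ps, which the choice of members leaves out, held 1, 5 and 2 reads in KO 1 to 3 and 0 reads in each WT library; these counts are too few for a comparison.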
